A study of Mus musculus with 6 samples.

Results

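Transcripts of the proteasome, its activators, its inhibitor and its assembly chaperones were examined in fetal mouse cortex after maternal exposure to bisphenol A (BPA, a plastic monomer that acts on estrogen receptors). With earlier results of these data known, members were taken by symbol, as every row of the count table whose name begins with Psm, then a letter from a to g and a number. This gave 49 of 45583 rows. By role they were 8 core alpha subunits (Psma), 11 core beta subunits (Psmb), 6 ATPases of the regulatory particle (Psmc), 14 non-ATPase members of the regulatory particle (Psmd), 5 activators (Psme), 1 inhibitor (Psmf1) and 4 chaperones of core assembly (Psmg).

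The proteasome is the protease that degrades most short-lived and damaged proteins of a cell after they have been tagged with ubiquitin. Its barrel-shaped core holds the proteolytic sites on beta subunits inside the barrel, and rings of alpha subunits form the gate at each end. The regulatory particle caps the core, recognizes the ubiquitin chain, removes it, and unfolds the protein with a ring of ATPases. Psme activators can cap the core in place of the regulatory particle, and immune signals such as interferon exchange catalytic beta subunits for the immunoproteasome forms. In developing neurons, this system clears cell cycle regulators, axon guidance receptors and synaptic proteins.

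RNA was sequenced from the cortex of 6 male fetuses (Sry positive) at GD15.5 (gestational day), with 1 library per fetus. All were of the Cyp19-EGFP strain, a line on an FVB/N background made with an artificial chromosome that carries an extra Cyp19a1 (aromatase) locus with EGFP placed before its start codon, and the labels give the genotype of every fetus as wild type. Pregnant dams had received subcutaneous injections between GD10.5 and GD14.5, of either BPA at 50 µg/kg per day (3 fetuses) or peanut oil as vehicle (3 fetuses). The labels number fetuses but give no litter, so that p-values measure the spread between these 6 fetuses, some of which may share a dam. The comparison of BPA with vehicle asks whether exposure in mid-gestation altered transcript levels in the fetal cortex.

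Total counts ranged from 3444601 in BPA replicate 3 to 7180835 in vehicle replicate 2, and 3 counts, taken as the floor of detection, corresponded to between 0.422 and 0.875 CPM (counts scaled to library size). These limits cover counting error only. All 9 markers of the dorsal cortex (among them Emx1, Tbr1 and Neurod2) were present, with a summed level of 2530 to 3092 CPM in vehicle and 2840 to 3045 CPM in BPA libraries. Of these 9, 8 had a higher and 1 a lower fitted level in BPA (median log2 fold change 0.08), with 0 at an unadjusted p under 0.05 (edgeR's quasi-likelihood test). The 8 markers of the ventral telencephalon, the origin of cortical interneurons, were all detected and summed to 719 to 835 CPM in vehicle against 575 to 686 CPM in BPA libraries, and all 8 had a lower mean in BPA (log2 fold change between -1.34 and -0.21), with no value at 0 in the defining genes Nkx2-1, Lhx6 and Dlx2. Of these 8, 5 had an unadjusted p under 0.05 in the same test, where 1.18% of all tested genes were lower at that level. In 6 of them every BPA library lay below every vehicle library, where 3.56% of all tested genes did so. The list was chosen with earlier results of these data known. Summed markers of other cells overlapped between vehicle and BPA libraries, at 61.0 to 87.2 and 71.3 to 78.5 CPM for microglia, 277 to 594 and 327 to 410 CPM for blood, 154 to 207 and 152 to 192 CPM for vessels and meninges, and 4.12 to 217 and 12.5 to 347 CPM for choroid plexus. In bulk tissue, fewer cells of a type and less RNA per cell cannot be told apart, and the part of the ventral difference in the results below was not tested.

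No proteasome gene passed the threshold (adjusted p under 0.1, edgeR's quasi-likelihood test with Benjamini-Hochberg adjustment over 13741 genes), and neither did any other gene (0.00% called). Of the 49 members, 45 had enough counts to be tested. The activator Psme2 had the largest difference and was higher in all BPA libraries, whereas the immunoproteasome subunit Psmb10 and the assembly chaperone Psmd9 were lower in all of them. At an unadjusted p under 0.05 there was 1 member higher (Psme2) and 1 member lower (Psmb10), against 1.02% of all tested genes higher and 1.18% lower. Every BPA library lay above every vehicle library for 1 member (Psme2) and below for 2 members (Psmb10 and Psmd9), where 3.19% and 3.56% of all tested genes did so, respectively. These counts are near those background shares for a list of 45 genes. DESeq2 and limma-voom also placed 0 members past the adjusted threshold, with 1 and 2 members at an unadjusted p under 0.05.

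The other members gave small differences with narrow intervals. The 95% interval of the fold change lay within 2-fold in either direction for 43 of 45 members (95.6%, and 91.9% of all tested genes), and within 1.5-fold for 37 of them (82.2%, and 71.2% of all tested genes). Among the 29 members with a mean of 50 to 250 CPM, all 29 intervals lay within 1.5-fold. At that level, 99.2% of all tested genes had intervals as narrow. The median log2 fold change of the 45 members was -0.04, compared with 0.00 over all tested genes, and the fitted log2 fold change was below 0 for 30 members and above 0 for 15. The share of all counts on the 49 members was 0.327, 0.331 and 0.356% in vehicle and 0.326, 0.363 and 0.315% in BPA libraries (exact two-sided permutation test, p = 0.8, where the smallest possible p is 0.1).

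**Figure D1:**
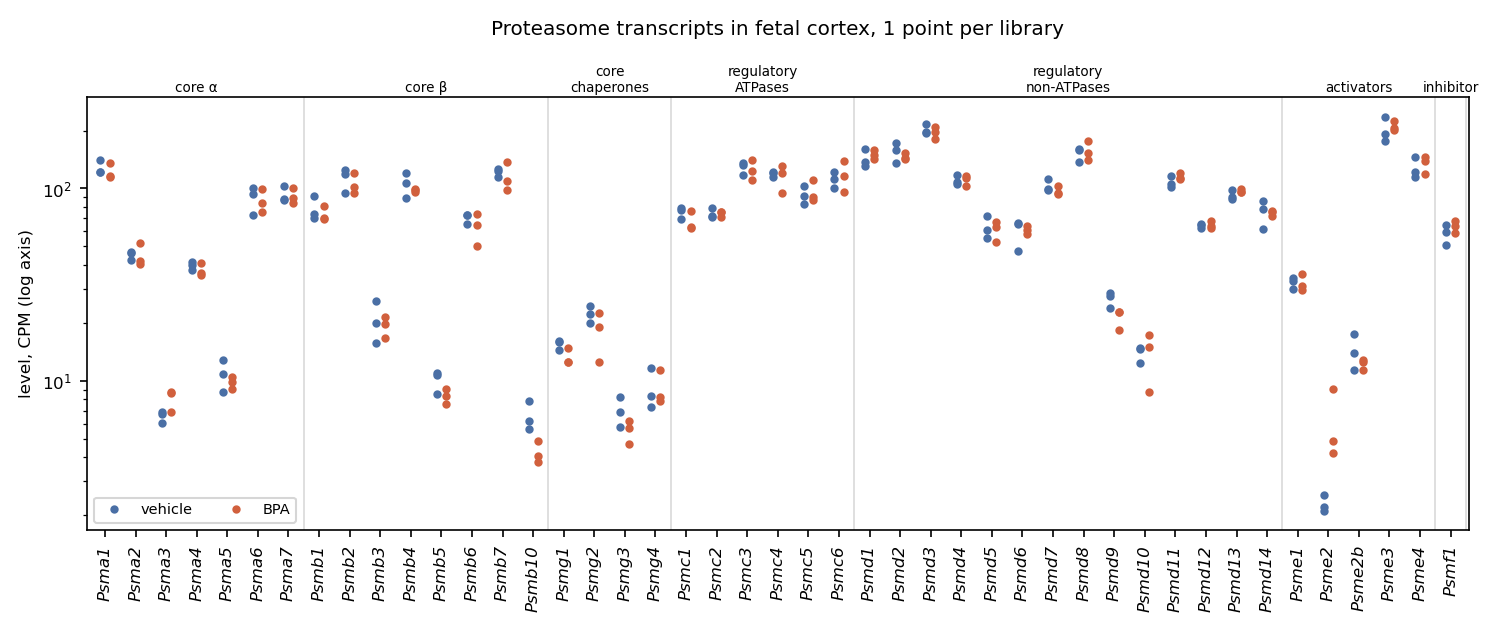
Level in CPM (log axis) of each of the 45 tested members, with 1 point per library (blue, vehicle; orange, BPA; 3 libraries each), ordered by role. Blue and orange points overlap for most members and separate for Psme2 (BPA above), Psmb10 and Psmd9 (BPA below).

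**Figure D2:**
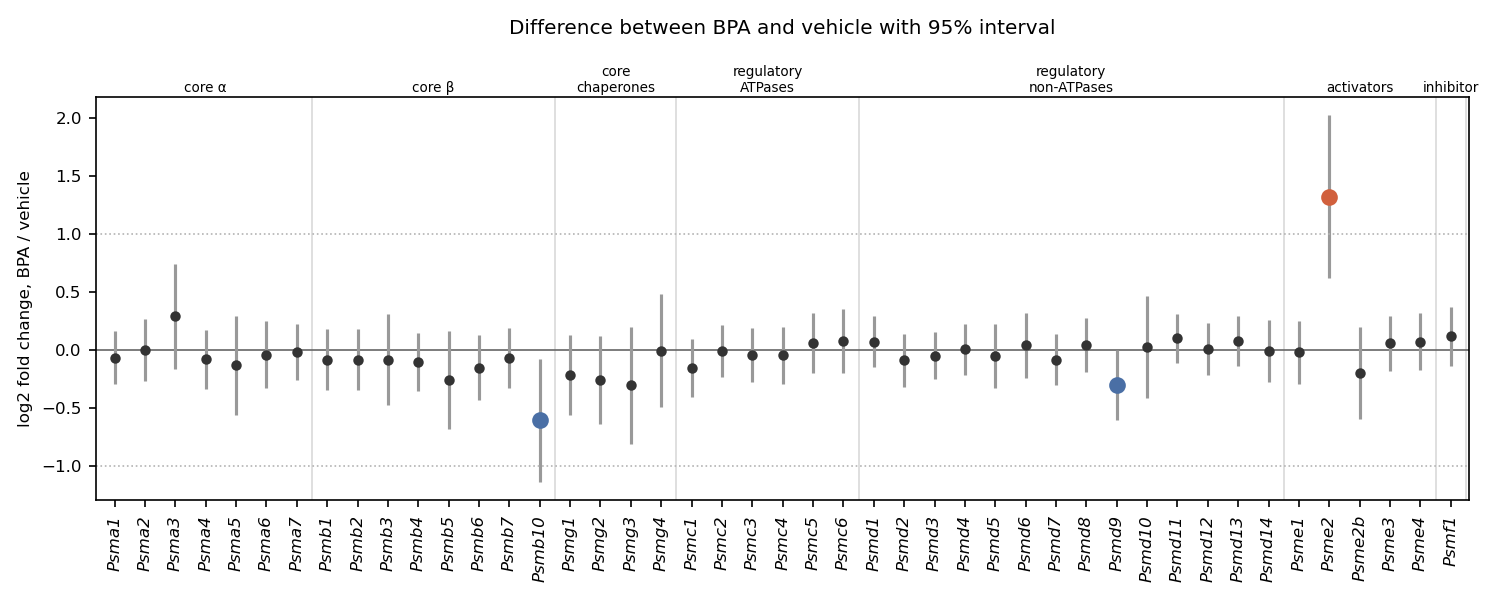
Log2 fold change of BPA over vehicle for the 45 tested members (points) with its 95% interval (bars) from edgeR's quasi-likelihood fit of 3 against 3 libraries; dotted lines mark 2-fold, and coloured points mark the 3 members whose libraries did not overlap. Most intervals include 0, and Psme2 stands at 1.32.

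Psme2 and Psme1 encode the beta and alpha chains of an interferon-inducible activator ring that opens the core to peptides. Psme2 lies at chr14:55587441-55591113 (GRCm38, minus strand, 8 exonic blocks), and a near-identical gene without introns, Psme2b, lies at chr11:48945354-48946190 (minus strand, 1 exonic block). Their coding sequences have the same length, 717 bases, and differ at 5 positions (99.3% identity). The stretch from coding base 444 to 543 is shown because it holds 3 of the 5 differences, set in capitals, by which a read can be told to come from either gene (GENCODE M21 transcripts, 5′ to 3′ on the coding strand).
Psme2: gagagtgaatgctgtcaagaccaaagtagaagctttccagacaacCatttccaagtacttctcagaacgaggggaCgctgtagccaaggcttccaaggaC
Psme2b: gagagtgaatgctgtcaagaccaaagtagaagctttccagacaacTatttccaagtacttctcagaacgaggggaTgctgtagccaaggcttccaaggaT
Of the 668 words of 50 bases (the read length) in the coding sequence of Psme2, 204 (30.5%) contained a difference from Psme2b, and all of them were within 2 mismatches of it. Over whole annotated transcripts, with untranslated sequence, 28.3% of the words of Psme2 occurred exactly in Psme2b. In the other direction, 68.7% of the words of Psme2b occurred exactly in Psme2.

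Psme2 had 15, 15 and 13 counts in vehicle and 31, 26 and 31 counts in BPA libraries. Scaled to library size, these were 2.21, 2.11 and 2.56 CPM in vehicle and 4.87, 4.23 and 9.04 CPM in BPA. The groups did not overlap, and the shallowest library, BPA replicate 3, was the highest. Means were 2.29 ± 0.238 CPM for vehicle and 6.05 ± 2.62 CPM for BPA (SD, n = 3 each), a log2 fold change of 1.32 (SE 0.331, 95% interval 0.62 to 2.03; edgeR's quasi-likelihood test, unadjusted p = 0.00108, adjusted p = 1.0). Without BPA replicate 3 the log2 fold change was 0.99 (unadjusted p = 0.00815, edgeR), and with all libraries thinned to the smallest total it was 1.35.

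The copy Psme2b differed in the other direction. It had 95, 81 and 89 counts in vehicle and 82, 77 and 39 counts in BPA libraries, with overlapping levels of 14.3 ± 3.09 and 12.3 ± 0.782 CPM (SD, n = 3 each; log2 fold change -0.20, SE 0.188, edgeR). Of the counts on either gene, Psme2 held 13.6, 15.6 and 12.7% in vehicle and 27.4, 25.2 and 44.3% in BPA libraries. The exact (Clopper-Pearson) 95% intervals of these shares were 7.84 to 21.5%, 9.02 to 24.5% and 6.96 to 20.8% in vehicle, and 19.5 to 36.6%, 17.2 to 34.8% and 32.4 to 56.7% in BPA. These intervals cover counting error only, since reads copied by PCR are not independent molecules. The shares separated by group, although the intervals of BPA replicates 1 and 2 reached into those of the vehicle libraries.

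When both genes were summed before the fit, the level was 16.2, 13.5 and 20.1 CPM in vehicle and 17.7, 16.7 and 20.4 CPM in BPA libraries. The groups overlapped, with a log2 fold change of 0.14 (SE 0.173, 95% interval -0.23 to 0.51; edgeR's quasi-likelihood test, unadjusted p = 0.432). Most of the sum came from Psme2b, so that this interval neither shows nor excludes a rise of the size seen in Psme2 alone. Whether the counting kept reads that align to both genes is not stated, and the part of read assignment in the difference was not tested.

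**Figure D3:**
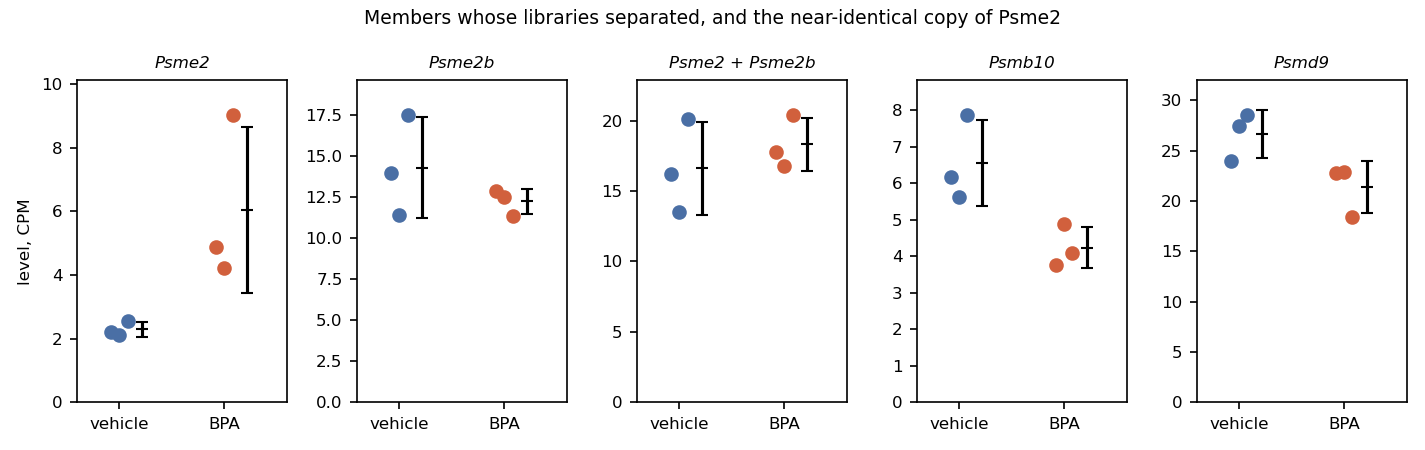
Level in CPM (axes start at 0) in each library for Psme2, its near-identical copy Psme2b, the sum of both, Psmb10 and Psmd9; points are libraries (blue, vehicle; orange, BPA) and black bars give the mean ± SD of 3 libraries. Psme2 separates by group, its sum with Psme2b does not, and Psmb10 and Psmd9 are lower in all 3 BPA libraries.

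The remaining activators and the inhibitor showed overlapping groups. Psme1, the partner chain of Psme2 in the activator ring, averaged 32.4 ± 2.21 CPM in vehicle and 32.2 ± 3.30 CPM in BPA (SD, n = 3 each; log2 fold change -0.02, interval -0.29 to 0.26). Psme3, the nuclear activator that works without ubiquitin, averaged 202 ± 30.7 and 210 ± 11.9 CPM (log2 fold change 0.06, interval -0.18 to 0.30). Psme4, a large activator with a role in histone turnover, averaged 128 ± 16.6 and 135 ± 14.1 CPM (0.07, interval -0.17 to 0.32). Psmf1, which inhibits the core in vitro, averaged 58.5 ± 6.95 and 63.5 ± 4.55 CPM (0.12, interval -0.14 to 0.37). These 4 intervals all lay within 1.5-fold of no difference.

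By level per length, Psme3 was the most abundant activator, at 69.9 CPM per kb of exon (mean of 6 libraries), compared with 15.9 for Psme2b, 15.6 for Psme4, 14.6 for Psme1 and 2.36 for Psme2. Psme2b, Psme4 and Psme1 differed from each other by less than the SD over the 6 libraries of Psme2b (2.76). The inhibitor Psmf1 stood at 9.47 CPM per kb.

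The inducible catalytic subunits were at or near the floor. Psmb8 and Psmb9, the immunoproteasome forms that replace Psmb5 and Psmb6, had 0 to 2 counts in every library and were not tested. Psmb11, the thymus form, and Psma8, the testis form of the alpha ring, had 0 or 1 count in every library. The third immunoproteasome subunit, Psmb10, which replaces Psmb7, was detected in all libraries.

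Psmb10 (chr8:105935735-105938444, minus strand) had 42, 40 and 40 counts in vehicle and 24, 30 and 14 counts in BPA libraries. Its levels were 6.18, 5.63 and 7.89 CPM in vehicle and 3.77, 4.88 and 4.08 CPM in BPA, so that all BPA libraries lay below all vehicle libraries. The log2 fold change was -0.61 (SE 0.251, interval -1.14 to -0.073; edgeR's quasi-likelihood test, unadjusted p = 0.0283, adjusted p = 1.0). The unadjusted p was 0.114 without vehicle replicate 3, 0.104 without BPA replicate 1, 0.0568 without BPA replicate 3 and 0.0749 by DESeq2. No 50-base word of its coding sequence was shared with another gene, and the antisense gene that overlaps it, Gm16156, had 0 to 2 counts.

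The constitutive catalytic subunits did not separate. Psmb7, which cleaves after basic residues, averaged 121 ± 6.49 CPM in vehicle and 115 ± 20.5 CPM in BPA (SD, n = 3 each; log2 fold change -0.07, interval -0.32 to 0.19). Psmb6, which cleaves after acidic residues, averaged 70.3 ± 4.34 and 62.7 ± 11.7 CPM (-0.15, interval -0.43 to 0.13). Psmb5, the site with chymotrypsin-like activity, averaged 10.1 ± 1.36 and 8.34 ± 0.758 CPM (-0.26, interval -0.68 to 0.17). In each of the 3, the lowest BPA library was replicate 3.

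Core subunits as a class tended to the lower side. Of 15 tested core members, 14 had a fitted log2 fold change below 0, with a median of -0.08, where 49.5% of all tested genes were below 0. This held for 6 of 7 alpha subunits (median -0.04) and for 8 of 8 beta subunits (median -0.09), and 1 of the 15, Psmb10, had an unadjusted p under 0.05. The exception, Psma3, averaged 6.56 ± 0.448 CPM in vehicle and 8.09 ± 1.03 CPM in BPA (log2 fold change 0.29, interval -0.16 to 0.75), and it shares 98.5% of its coding words with other genes. The summed level of the core was 880, 907 and 1025 CPM in vehicle and 851, 995 and 816 CPM in BPA libraries. The groups overlapped, with vehicle replicate 3 the highest and BPA replicate 3 the lowest. Without vehicle replicate 3, 9 of the 15 were lower (median -0.0049), and without BPA replicate 3, 10 of the 15 were lower (median -0.03). The subunits of a complex were counted in the same libraries and are not independent of each other.

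The regulatory particle was evenly divided. Of its 20 members, 10 had a fitted log2 fold change below 0 and 10 above (median 0.00). The number below 0 was 15 without BPA replicate 2 and 6 without BPA replicate 3, and the difference between the core and the regulatory particle was not tested. The summed level was 1947, 1940 and 2014 CPM in vehicle and 1937, 2098 and 1837 CPM in BPA libraries, a difference of -0.504% between means. Among the ATPases that unfold substrates, 4 of 6 were lower (median -0.02), from Psmc1 at -0.15 to Psmc6 at 0.08. Among the 14 non-ATPases, 6 were lower (median 0.01), and all of their differences apart from that of Psmd9 lay between -0.09 and 0.10.

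Psmd9 (chr5:123169413-123250131, plus strand) encodes a chaperone that holds ATPases together while the base of the regulatory particle is built, and leaves before the particle is complete. It had 163, 195 and 145 counts in vehicle and 145, 141 and 63 counts in BPA libraries. Its levels were 24.0, 27.5 and 28.6 CPM in vehicle and 22.8, 22.9 and 18.4 CPM in BPA, without overlap. The log2 fold change was -0.30 (SE 0.143, interval -0.60 to 0.0031; edgeR's quasi-likelihood test, unadjusted p = 0.0521, adjusted p = 1.0), and leaving out each library gave values from -0.37 to -0.22. The genes that overlap it, Hpd and Gm26745, had at most 1 count. The other base chaperones, Psmd5 and Psmd10, had log2 fold changes of -0.05 and 0.03.

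The chaperones of core assembly, which pair up to build and order the alpha ring, were lower on average. All 4 had a fitted log2 fold change below 0 (median -0.24), where 49.5% of all tested genes did so. The values were -0.21 for Psmg1 (interval -0.56 to 0.13), -0.26 for Psmg2 (-0.64 to 0.13) and -0.30 for Psmg3 (-0.81 to 0.20). Psmg4 was close to no difference, at -0.0052 (-0.49 to 0.48). None had an unadjusted p under 0.05. Psmg1 had 109, 103 and 81 counts in vehicle and 94, 77 and 43 counts in BPA libraries, with overlapping levels. Psmg2 averaged 22.2 ± 2.18 CPM in vehicle and 18.1 ± 5.11 CPM in BPA (SD, n = 3 each), with BPA replicate 3 at 12.5 CPM. Psmg3 averaged 6.99 ± 1.26 and 5.50 ± 0.765 CPM, and Psmg4 averaged 9.10 ± 2.25 and 9.17 ± 1.92 CPM. The summed level of the 4 was 50.3, 52.9 and 58.2 CPM in vehicle and 47.4, 49.6 and 41.1 CPM in BPA libraries, so that the sums did not overlap, by a margin smaller than the SD of either group (4.01 and 4.38). How often sums of other genes separate was not computed. Psmg4 turned to the higher side without vehicle replicate 3 (log2 fold change 0.19), without BPA replicate 1 (0.096) or BPA replicate 2 (0.052), and by limma-voom (0.0021). The summed level of the ventral telencephalon markers given above was also lower in every BPA library than in every vehicle library. Singly, 6 of those 8 markers separated in this way, and 0 of the 4 chaperones did. The part of the ventral difference in the values of Psmb10, Psmd9 and the chaperones was not tested.

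**Figure D4:**
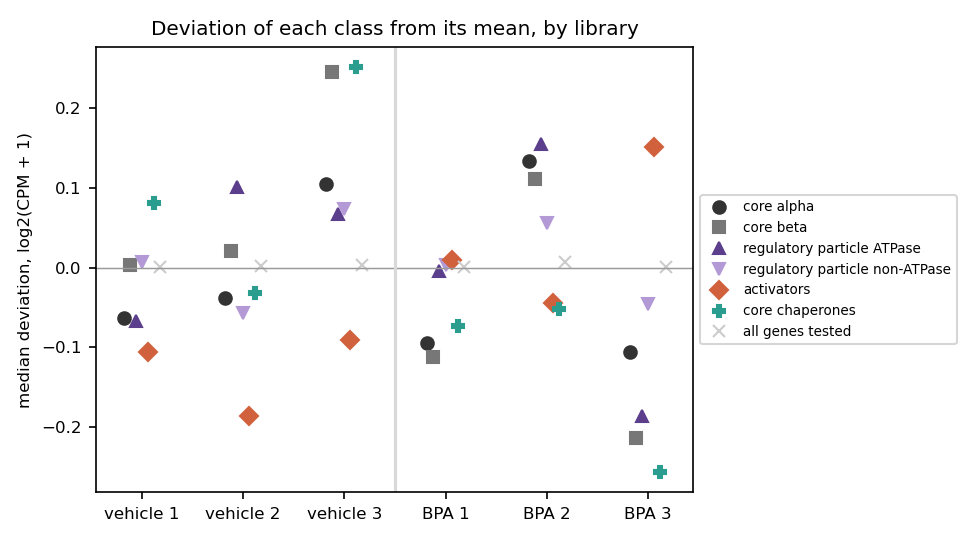
Median deviation of the members of each class from their own mean over the 6 libraries, in log2(CPM + 1), by library; grey crosses give the median over all 13741 tested genes. The crosses stay near 0. Vehicle replicate 3 is raised for the core and its chaperones, and BPA replicate 2 for the core and the regulatory particle ATPases. BPA replicate 3 is lowered for the core, its chaperones and the regulatory particle ATPases, and raised for the activators.

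Levels within the complex were compared per length, as CPM per kb of exon averaged over 6 libraries. In the alpha ring they ran from 71.1 for Psma6 to 1.88 for Psma3, and in the beta ring from 90.7 for Psmb2 to 3.17 for Psmb10 among the tested members. In the base of the regulatory particle Psmc5 was highest (67.5) and Psmc2 lowest (14.7), and in the lid Psmd8 was highest (50.3), and Psmd11 lowest (17.4). Psmd8 is the subunit that joins the lid last during its assembly. The lengths join all annotated exons of a gene, so the order depends on the annotation. Over the 6 libraries Psmd11 averaged 111 CPM (6383 bases of exon), above Psmd6 at 60.1 CPM. Psmc2 averaged 74.0 CPM (5031 bases), above Psmc1 at 71.1 CPM. Psmd9, at 3.31, was the lowest of all 20 regulatory particle members on this scale, but its exonic length of 7248 bases comes from a gene model that starts far upstream of the RefSeq start used for its promoter, and on the CPM scale Psmd10 was lower (13.9 ± 1.37 CPM in vehicle, SD, n = 3). The assembled core holds its constitutive alpha and beta subunits in equal number.

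Lower levels in the core went with sequence that members share with processed pseudogenes, which are intron-less copies of a transcript elsewhere in the genome. In 12 of the 49 members at least 50% of the 50-base coding words lay within 2 mismatches of another gene, and 6 of them were constitutive core members (Psma2, Psma3, Psma4, Psma5, Psmb3 and Psmb5). These 6 stood at 1.88 to 16.3 CPM per kb (median 9.46), and the 8 other constitutive core members at 16.5 to 90.7 CPM per kb (median 38.9). The sets met closely at their edges, where Psma4 (87.9% shared) stood at 16.3 and Psmb1 (47.1% shared) at 16.5, and the threshold of 50% was set with the values known. Exonic lengths of the 6 ran from 899 bases (Psmb5) to 3894 bases (Psma3), and the part of length in the contrast was not tested. In the regulatory particle, Psmc1 (83.1% shared) stood at 36.8 and Psmd2 (74.9% shared) at 37.4 CPM per kb, both above the class median of 30.3. Psmd11, the other regulatory particle member past 50% (89.6% shared), stood below that median, at 17.4 CPM per kb. Shared sequence therefore went with no single direction there. Counts were also found on the pseudogenes themselves, with 126 to 331 on Gm13835, a copy of Psma3, where Psma3 itself had 30 to 53 counts. The copy of Psma4, Gm6542, had 110 to 268 counts.

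Members were summed with a copy only where it was in the count table and held at least 10% of their transcript words exactly. Besides Psme2 and Psme2b, these sums gave log2 fold changes of 0.10 for Psma3, -0.0050 for Psma4, 0.05 for Psma5, -0.08 for Psmc1 and -0.04 for Psmd2. None passed the threshold. Psma2, Psmb3, Psmb5, Psmd11 and Psmg3 were not summed. The number of core members on the lower side was then 13 of 15. Levels of the 12 members with shared sequence are therefore uncertain, and so is the order in which they stand.

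**Figure D5:**
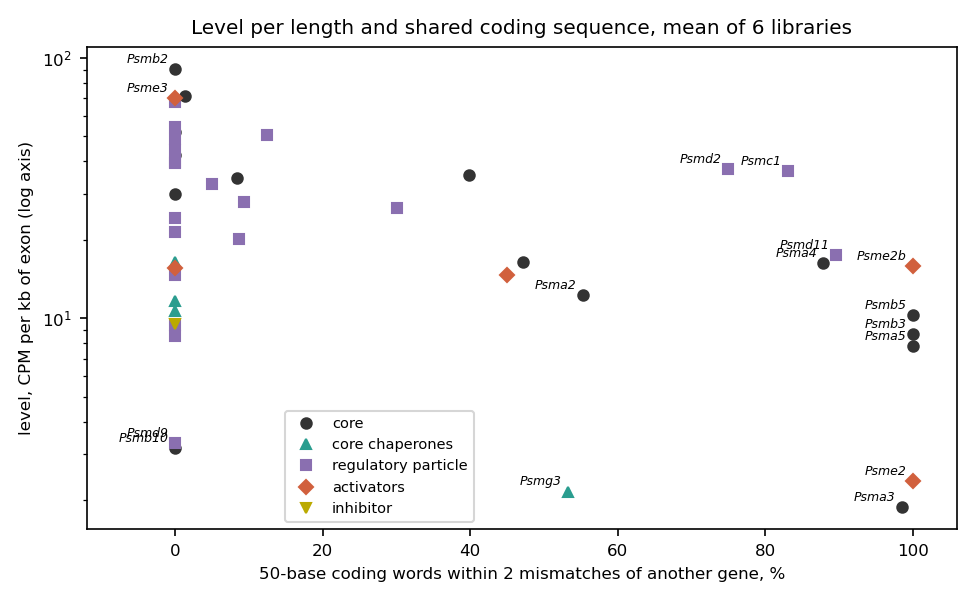
Level per length (CPM per kb of exon, log axis, mean of 6 libraries) against the percentage of 50-base coding words that lie within 2 mismatches of another gene, with 1 point per tested member and symbols by class. Core members with shared sequence (right) stand below most core members without it (left).

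Promoter sequence was examined for 41 of the 49 members, which matched the RefSeq table (GRCm38.p6, 250 bases before the annotated start of the gene, both strands). The core of the antioxidant response element, TGACNNNGC, through which NFE2L1 and NFE2L2 raise proteasome genes when degradation falls short, was present in 5 members (12.2%, and 11.5% of 27025 promoters). Psmb5, Psmb6 and Psmd9 are shown because they held it within 50 bases of the start and were described above, with the match in capitals and flanking bases in lower case, given on the strand of the gene (plus for Psmb6 and Psmd9, minus for Psmb5), at chr14:54618024-54618052, chr11:70525338-70525356 and chr5:123228149-123228177.
Psmb5: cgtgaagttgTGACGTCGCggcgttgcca
Psmb6: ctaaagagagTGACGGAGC
Psmd9: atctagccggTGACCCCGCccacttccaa
The other members with a match were Psmc6 and Psmd12. The CCAAT box was present in 14 members (34.1%, and 37.5% of all promoters), the interferon gamma element TTCNNNGAA in 2 members (4.88%, and 8.13%; Psmb8 and Psmg1), and the core of the interferon-stimulated response element in 3 members (7.32%, and 3.46%; Psmb3, Psmd4 and Psmd9). These elements can overlap. A match describes letters in the window and not a site in use.

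Genes that work with the proteasome but fall outside the name rule gave similar values. Of 13 names listed for partners (ubiquitin receptors, deubiquitinases, assembly and import factors), 2 of which are second symbols of a gene already listed, 10 were in the table and tested, 5 lower and 5 higher, with 0 at an unadjusted p under 0.05. Pomp, which completes the core, averaged 58.4 ± 6.63 CPM in vehicle and 53.3 ± 3.36 CPM in BPA. Among 6 genes of the NFE2L1 axis, 2 were lower and 4 higher, with 0 at an unadjusted p under 0.05, and Nfe2l1 itself averaged 203 ± 7.50 and 191 ± 5.38 CPM (log2 fold change -0.08). Among 12 tested genes for ubiquitin, its activating enzymes and shuttle factors, 9 were lower and 3 higher, again with 0 at an unadjusted p under 0.05.

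Of 17 interferon and antigen presentation genes, 10 had enough counts to be tested, 3 lower and 7 higher, where 49.5% of all tested genes were lower. Irf9, a transcription factor of interferon signalling, was the only gene of the 10 at an unadjusted p under 0.05. Of all tested genes, 1.02% were higher at that level, and 3.19% had every BPA library above every vehicle library. Irf9 had 12.6, 14.9 and 14.2 CPM in vehicle and 20.6, 17.4 and 21.6 CPM in BPA libraries, without overlap (log2 fold change 0.50, SE 0.159; edgeR's quasi-likelihood test, unadjusted p = 0.00635, adjusted p = 1.0). The interferon target Ifit1 was at 0 in all libraries.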

How the data were processed

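Read counts per gene, as the authors deposited them for 6 libraries, were used (3 vehicle, 3 BPA). Per the study's methods, libraries from total RNA kept strand, single-end reads had 50 bases, TopHat2 2.0.14 placed them on GRCm38, and featureCounts assigned them to genes. Use of strand and of multiply aligned reads is not given in the sources used here. All table columns were assigned to samples by title. In R 4.3.3, genes were filtered by edgeR 4.0.16 (filterByExpr, minimum count 10, minimum total 15), scaled by TMM and compared by its quasi-likelihood test, with no covariate. P-values were adjusted by Benjamini-Hochberg, and 0.1 was the threshold, as the study set it. CPM used TMM-scaled library sizes. DESeq2 1.42.0, limma-voom (limma 3.58.1), the edgeR likelihood ratio test, other scalings and filters, thinning, summing with copies and leaving out each library were alternatives. The fit was tested on simulated data. Coordinates, exonic lengths and shared words came from GENCODE M21. Members, lists and classes were chosen with earlier results of these data known. Genes named were members at an unadjusted p under 0.05, members with groups that did not overlap, the catalytic beta subunits, activators, inhibitor, chaperones and Psma8, the highest and lowest per length in each ring, base and lid, members that were not tested, and list genes at an unadjusted p under 0.05. Others were added as examples after their values were seen. Some list genes are not reported here.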

Additional observations from a re-analysis of the deposited data

How the results depend on the processing

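The count of all genes past the adjusted threshold was 3 by DESeq2, 4 by the likelihood ratio test and 19 without a filter on low counts, compared with 0 by the quasi-likelihood test, and 0 to 1 when each library was left out. The count of members past it was 1 (Psme2, adjusted p = 0.0381, edgeR's quasi-likelihood test) without the filter and 0 to 0 when each library was left out. Members at an unadjusted p under 0.05 numbered 1 by DESeq2, 0 with at least 10 CPM in 3 libraries (which removes Psme2 and Psmb10 by construction), 1 when summed with their copies and 1 to 3 when each library was left out. Among the named members, the log2 fold change changed sign for Psmg4 by limma-voom (0.0021) and for Psme1 after thinning (0.040), and that of Psme2b was 0.14 when summed with Psme2. When each library was left out in turn it ran from -0.15 to 0.19 for Psmg4, from -0.091 to 0.042 for Psme1, from -0.028 to 0.19 for Psme3 and from -0.22 to 0.027 for Psmb7. The cause was not tested beyond the construction of each alternative. Members on the lower side ranged from 22 to 34 when each library was left out, the median of the activators was -0.03 without vehicle replicate 1 and that of the regulatory particle -0.06 without BPA replicate 2. In 393 other recomputations, a gene kept its direction and its side of the threshold, a count stayed within 1.5 times, or a class median moved by less than 1 SD. That SD was of the median deviation of the class over the vehicle libraries. The margins were wide, since no member was past the threshold in the main fit. The 393 include Psme2 at 0.14 when summed with Psme2b and the core median of -0.0049 without vehicle replicate 3. No paired analysis was possible because the labels give no replicate number shared between the groups and no litter. A gene at 3 counts or fewer was not detectable at this depth.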

Other observations

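Irf9 and Psme2 lie in the same stretch of chromosome 14, with 12458 bases between them, and Rnf31 between. The neighbours of Psme2 were therefore examined after these values had been seen. Within 100 kb of Psme2, 14 other genes were tested, of which 12 had overlapping groups, 1 (Irf9, whose value prompted the search) had all BPA libraries above and 1 (Emc9) had all BPA libraries below, where 3.19% and 3.56% of all tested genes did so. Irf9 lies at chr14:55603571-55610030 (plus strand). Emc9 (chr14:55581516-55585302, minus strand), which encodes a subunit of the complex that inserts proteins into the endoplasmic reticulum membrane, was lower in all BPA libraries, at 4.56, 3.24 and 4.73 CPM in vehicle and 3.14, 2.76 and 2.63 CPM in BPA (log2 fold change -0.52, SE 0.292; edgeR's quasi-likelihood test, unadjusted p = 0.0924, adjusted p = 1.0). Rnf31, a ubiquitin ligase gene that starts 595 bases from Psme2, was at 44.7 CPM in vehicle and 45.4 CPM in BPA. Farther out, Pck2 had a log2 fold change of -0.36 and Mdp1 of 0.27, both with overlapping groups. The alleles that each fetus carried in this stretch were not analysed here.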
